A study of Mus musculus with 2 samples.

Results

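The genes of Wnt signalling were described in open chromatin of mouse calf muscle. They were a list of 50 named genes: 19 Wnt ligands, 10 Frizzled receptors, 5 co-receptors, 8 secreted inhibitors, 3 R-spondins and 5 intracellular transducers and targets. All 50 were found among 21853 protein-coding genes with a coding transcript start on chromosomes 1 to 19, X and Y of GENCODE M21 (mm10). Each gene was looked at in its promoter, the 500 bp on either side of a coding start, and in its locus, which reaches 20 kb past either end of the gene.

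DNase I cuts DNA where nucleosomes leave it exposed, and DNase-seq reads the ends of the fragments it releases. The tissue was whole gastrocnemius of male B6CASTF1/J mice, an F1 hybrid strain, at an age of 10 days, with no treatment or engineered allele named. There was 1 group with 2 libraries, labelled biological replicates 1 and 2. Both labels name 3 males and share a donor record, and whether tissue was pooled is not stated, so the spread between the libraries may be partly technical. With 1 group there was no comparison of conditions and no test, and the genes are set beside all coding genes of the same libraries.

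Wnt proteins are secreted lipid-modified ligands that bind Frizzled receptors. With the co-receptors Lrp5 or Lrp6 they stop the breakdown of beta-catenin, which then enters the nucleus and works with TCF/LEF factors on target genes such as Axin2. Other branches run through Ror and Ryk receptors without beta-catenin. In skeletal muscle the pathway is known for roles in muscle formation in the embryo, in satellite cells, the muscle stem cells, and at the neuromuscular junction.

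The deposited sets held 123255 peaks in replicate 1 and 150088 in replicate 2, with 310961 and 373154 footprints, the short gaps in cleavage that a bound protein can leave within an open site. The peak value is a depth-scaled signal, and in each library 100% of values were whole multiples of 1 step (0.00544 and 0.00587), within 0.05 of a step. Taking each step as 1 tag, the median peak held 134 and 122 tags. Intervals given below are exact 95% Poisson intervals on these tags and cover counting error only, since copies made by PCR cannot be told from separate cuts. Promoters of 9 of 9 myofibre, 5 of 5 satellite cell, 6 of 6 fibroblast, 6 of 6 endothelial and 5 of 5 pericyte and smooth muscle marker genes were open in both replicates, against 0 of 4 hepatocyte and 0 of 4 lymphocyte genes. Over all coding genes 66.0% were open. Markers of several cell types of muscle were thus open, but the lists also differed in CpG content. The median ratio of observed to expected CpG was 0.237 for hepatocyte and 0.274 for lymphocyte genes. In the 5 open lists it ran from 0.365 (pericyte and smooth muscle) to 0.575 (endothelium). The part of CpG content in these counts was not tested. Tendon genes were open at 3 of 4 and macrophage genes at 1 of 5.

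Wnt pathway promoters were mostly open but low. A promoter was called open when a peak of the wider deposited set overlapped it, and its value was that of the highest such peak. Of the 50 genes 43 were open in both replicates, beside 66.0% of all coding genes. In replicate 1 alone 44 were open (all genes: 67.8%) and in replicate 2 alone 45 (all genes: 68.0%). CpG-rich promoters are open in most tissues, so the genes were also read by CpG content, with all coding genes cut into 10 equal classes by the ratio of observed to expected CpG. In classes 5 to 10, where 95.4% of coding genes were open, 39 of 43 Wnt genes were. In classes 1 to 4, where 21.8% were open, 4 of 7 were (Wnt16, Dkk1, Dkk2 and Dkk3), and the other 3 were Wnt8a, Wnt8b and Wnt10a. The median value of the open Wnt promoters, as the geometric mean of both replicates, was 1.98, beside 5.49 over all 14419 open promoters. Only 9 of the 43 lay above that all-gene median. A geometric mean of 2 or less was found at 22 of 43, beside 23.0% of all open promoters. In a bulk tissue, fewer cells with an open site and less cutting per cell cannot be told apart.

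The roles in the pathway differed in level. Median values of the open promoters were 1.19 for the ligands (13 of 19 open), 5.26 for the Frizzled receptors (10 of 10), 3.63 for the co-receptors (5 of 5), 1.29 for the secreted inhibitors (7 of 8), 0.596 for the R-spondins (3 of 3) and 7.69 for the transducers and targets (5 of 5). Values of 2 or less were found at 11 of 13 open ligand promoters, 5 of 7 inhibitors, 3 of 3 R-spondins, 1 of 10 Frizzled promoters (Fzd10), 0 of 5 co-receptors and 2 of 5 transducers and targets (Tcf7 and Lef1). Secreted proteins thus made up most of the low promoters but not all of them.

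**Figure D1:**
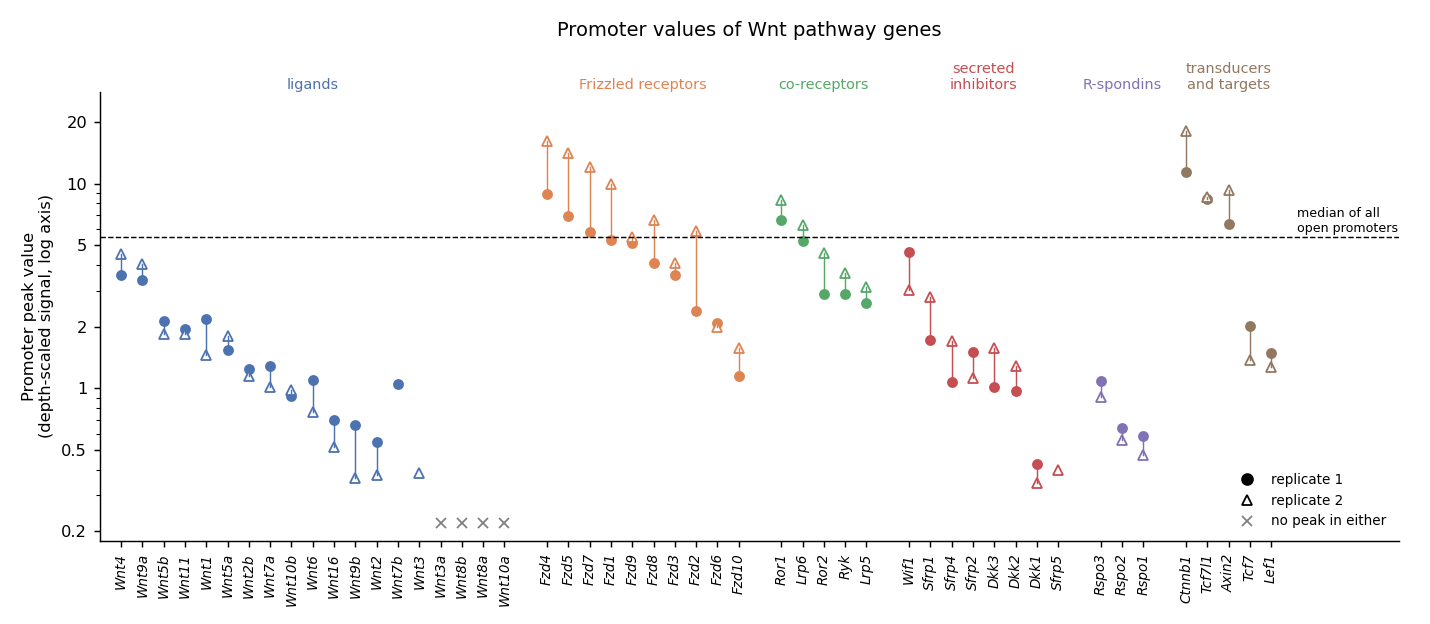
Promoter peak value (depth-scaled signal, log axis) of each Wnt pathway gene in replicate 1 (filled circles) and replicate 2 (open triangles), grouped by role, with lines joining the replicates of a gene. The dashed line is the median of all open promoters, 5.49. No ligand, inhibitor or R-spondin reaches that line in either replicate, and crosses mark Wnt3a, Wnt8a, Wnt8b and Wnt10a, which had no peak.

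Among the ligands, Wnt4, which is needed for kidney tubules and female gonads, had the highest promoter at 3.59 in replicate 1 (95% interval 3.33 to 3.88) and 4.55 in replicate 2 (4.23 to 4.88). Wnt9a, known from joint formation, followed at 3.37 and 4.06. These were the only ligand promoters above 2 in both replicates, and they still lay at percentiles 39.8 and 37.2 of all open promoters. Wnt5b (2.14 and 1.84), Wnt11 (1.96 and 1.83), Wnt1 (2.18 and 1.46) and Wnt5a (1.53 and 1.81) formed the next step. Wnt5a and Wnt11 are the ligands best known for the beta-catenin-independent branch, and Wnt1 is the classical ligand of the beta-catenin branch. Their order cannot be read closely, since replicate 1 put Wnt1 first and replicate 2 put Wnt5b first.

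Lower still were Wnt2b (1.24 and 1.14), Wnt7a (1.28 and 1.01), Wnt10b (0.914 and 0.980) and Wnt6 (1.10 and 0.769). Wnt7a is the ligand that expands satellite cells through Fzd7, and Wnt10b is known to hold back fat cell formation. The lowest open ligand promoters were Wnt16 (0.696 and 0.516), Wnt9b (0.658 and 0.364) and Wnt2 (0.544 and 0.376). The Wnt2 value rested on 100 tags in replicate 1 and 64 in replicate 2, and lay at percentile 2.85 of open promoters.

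For 6 ligands no promoter was open in both replicates. Wnt3 had a peak of 0.387 in replicate 2 alone, on 66 tags, and Wnt7b a peak of 1.05 in replicate 1 alone, on 193 tags. Wnt3a, Wnt8a, Wnt8b and Wnt10a had none in either. Wnt3a, a ligand of the embryonic tail bud, stands apart from the other 3 by its CpG-rich promoter (class 7), whereas Wnt8a fell in class 3 and Wnt8b and Wnt10a in class 4.

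All 10 Frizzled receptors were open, with geometric means from 1.34 to 11.9. Fzd4, the receptor for Norrin in blood vessels, had 8.85 in replicate 1 (8.43 to 9.29) and 16.1 in replicate 2 (15.5 to 16.7). Fzd5 had 6.98 and 14.1, Fzd7 5.77 and 12.0, and Fzd1 5.29 and 10.0. These 4 were the Frizzled genes above the all-gene median, with Fzd4 at percentile 85.5 and Fzd1 at 61.5. Both replicates gave the same order of Fzd4, Fzd5 and Fzd7 at the top of the receptors.

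Fzd9 (5.10 and 5.49) and Fzd8 (4.11 and 6.63) were close to the all-gene median. Fzd3 (3.59 and 4.11) and Fzd6 (2.08 and 1.98) are the pair known for planar cell polarity and axon guidance, and both lay below it. Fzd2 had 2.39 in replicate 1 and 5.86 in replicate 2, the widest replicate ratio of the open members (2.45). Fzd10 was the lowest Frizzled gene at 1.15 and 1.57.

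The Fzd7 promoter peak is shown because it held a TCF/LEF core that lay partly under a footprint in both replicates. Fzd7 is on the plus strand, and its peak at chr1:59481901-59482200 (mm10, plus strand, intergenic) had its midpoint 373 bp before the start. Capitals mark the core, which reads CTTTGTT on the minus strand.
Fzd7 promoter: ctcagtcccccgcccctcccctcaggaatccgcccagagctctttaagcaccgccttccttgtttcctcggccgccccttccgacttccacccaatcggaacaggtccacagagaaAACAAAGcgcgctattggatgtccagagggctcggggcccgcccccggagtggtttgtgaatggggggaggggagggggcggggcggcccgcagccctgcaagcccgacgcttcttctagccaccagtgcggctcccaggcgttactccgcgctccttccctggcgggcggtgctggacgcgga
The same 300 bases held the letters GGGCGG, on either strand, 7 times. These letters, the GC box bound by SP and KLF factors, were present in 21.8% of all shared peaks and in 26.5% of those in the Wnt loci.

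The co-receptors were open throughout. Lrp6 had 5.27 and 6.27, and its close relative Lrp5 had 2.62 and 3.13. The receptor tyrosine kinases Ror1 and Ror2, which bind Wnt5a, had 6.66 and 8.32, and 2.89 and 4.57. Ryk, an atypical kinase-like Wnt receptor, had 2.88 and 3.67. In both replicates Ror1 was first and Lrp6 second, and the intervals of Lrp5, Ror2 and Ryk overlapped in replicate 1 (2.39 to 2.86, 2.65 to 3.15, 2.64 to 3.14). In replicate 2 the interval of Ror2 (4.25 to 4.90) lay above those of Lrp5 (2.87 to 3.41) and Ryk (3.39 to 3.97).

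Wif1, which binds Wnt ligands outside the cell, was the highest secreted inhibitor at 4.62 in replicate 1 (4.31 to 4.94) and 3.00 in replicate 2 (2.75 to 3.28). Sfrp1 (1.71 and 2.78), Sfrp4 (1.08 and 1.70) and Sfrp2 (1.50 and 1.12) are decoys with a Frizzled-like domain. Dkk3 had 1.02 and 1.57, and Dkk2 had 0.973 and 1.28. Dkk1, which blocks Lrp5 and Lrp6, was the lowest open promoter of the whole list at 0.424 and 0.346, on 78 and 59 tags. Sfrp5 had a peak in replicate 2 alone (0.399, on 68 tags).

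R-spondins raise Wnt responses by sparing Frizzled receptors from turnover. Rspo3 had 1.09 and 0.910, Rspo2 had 0.636 and 0.558, and Rspo1 had 0.587 and 0.470. All 3 were open in both replicates and lay at or below percentile 11.9 of open promoters.

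Ctnnb1, which encodes beta-catenin, had the highest promoter of the list, at 11.3 in replicate 1 (10.9 to 11.8) and 18.1 in replicate 2 (17.5 to 18.8), at percentile 92.7. Tcf7l1, a TCF factor that mainly represses, had 8.39 and 8.64. The feedback target Axin2 had 6.36 and 9.29. Tcf7 (2.02 and 1.37) and Lef1 (1.48 and 1.27), the TCF/LEF factors that are themselves known Wnt targets, were low. The 3 TCF/LEF genes thus split into 1 high and 2 low promoters, and Tcf7l2, the remaining gene of the family, had 6.29 and 8.67.

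Alternative starts were looked at one by one, and 71 of the 94 coding starts of the 50 genes were open in both replicates. The share over all coding starts is not given here, so this count cannot be called high or low. Wnt5a was open at both of its starts, at 1.53 and 1.81 for the outer one and at 0.832 and 0.599 for the inner one. Wnt5b had its highest value at an inner start, while its outer CpG-rich starts had 1.13 and 0.933. Lef1 was higher at an inner start (1.48 and 1.27) than at the outer start shared by 3 of its transcripts (0.761 and 0.558). Ror2 had 2.89 and 4.57 at its outer start, against 1.65 and 1.22 at the inner one. Ctnnb1 was open at 3 of its 6 starts, which lay within 1 kb of each other. Wnt10b was open in both replicates only at its inner start (0.914 and 0.980), through a peak more than 250 bp from that start. The starts in the first exon of Wnt10b had a peak in replicate 1 alone (0.810).

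Open promoters were on the whole higher in replicate 2, but the Wnt ligands were not. Replicate 2 was higher at 25 of 43 open Wnt promoters, beside 82.0% of all open promoters. By role this was 4 of 13 ligands, 0 of 3 R-spondins, 4 of 7 inhibitors, 9 of 10 Frizzled receptors, 5 of 5 co-receptors and 3 of 5 transducers and targets. The interval of replicate 2 lay wholly above that of replicate 1 at 19 of 43 (all open promoters: 67.4%), and wholly below it at 6 of 43 (all open promoters: 5.72%). The 6 were Wnt1, Wnt6, Wnt9b, Wif1, Sfrp2 and Tcf7. The ratio also moved with the level. Over all promoters with a value of 1 or less the median ratio of replicate 2 to replicate 1 was 0.912, and over those above 8 it was 1.52. At 1 or less, 39.2% of all promoters and 1 of 9 Wnt promoters were higher in replicate 2. Between 1 and 2 it was 64.3% of all and 5 of 13, and between 2 and 4 it was 83.4% and 7 of 9. Between 4 and 8 it was 90.01% of all and 7 of 7, and above 8 it was 95.77% and 5 of 5. Low level therefore went with a low ratio in Wnt genes and in all genes, and its part in the ligands' ratios was not tested.

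**Figure D2:**
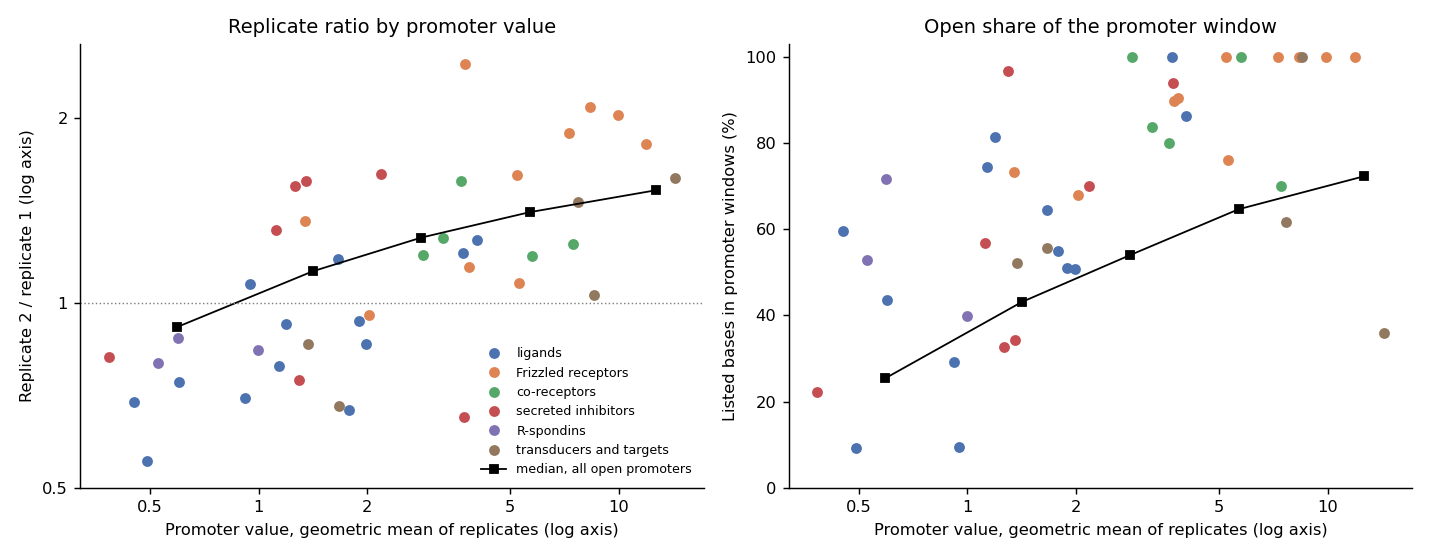
Left, ratio of replicate 2 to replicate 1 (log axis) against the promoter value (geometric mean, log axis), and right, the percentage of bases of the promoter windows listed at a false discovery rate under 0.05 (mean of replicates) against the same value. Each point is an open Wnt pathway promoter coloured by role, and black squares are medians of all open promoters in 5 level classes. Most ligands lie below a ratio of 1, and most points in the right panel lie above the squares of the same level.

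Wnt promoters were broad beside all open promoters of like value. The files list bases with a false discovery rate of cleavage under 0.05, called listed bases here. At values between 1 and 2, the median Wnt promoter window had 64.5% of its bases listed in replicate 1 and 50.8% in replicate 2, beside 43.2% and 43.0% over all open promoters of that level. Between 2 and 4 it had 94.7% and 86.4%, beside 53.7% and 54.3%. The members were wider at every level class but the excess depended on the library, and at 1 or less it was 42.7% and 37.3% beside 26.4% and 24.5%. Level classes were not matched for CpG content. In CpG classes 5 to 10, over all levels, the open Wnt promoters had 84.0% and 64.3%, beside 62.5% and 62.2% for all genes. There the medians were close in replicate 2. The part of CpG content in the width was not tested. Windows of genes with several starts were joined. Wnt9a was listed over 100% of its window in both replicates at values of 3.37 and 4.06, and so were Fzd1, Fzd4, Fzd7, Fzd8, Lrp5, Lrp6 and Tcf7l1. Ctnnb1, the highest promoter, was listed over 35.3% and 36.5%, and its window joined 6 starts of which 3 had no peak. Wnt1 was listed over 84.0% in replicate 1 and 25.9% in replicate 2, the widest gap in percentage points among the ligands open in both, while the ratio was wider at Wnt9b (14.7% and 3.90%).

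A replicate 1 peak that overlapped a replicate 2 peak was called shared, so 1 replicate 2 peak could count more than once. Wnt9a, for instance, had 18 shared peaks but 17 peaks in replicate 2. Shared peaks numbered 389 in the 50 loci, of which 92 touched a promoter of some coding gene. The other 297 were distal, with 160 in introns, 51 in exons and 86 between genes. Density per 100 kb of locus had a median of 9.29 over the Wnt genes and 6.27 over all coding genes. Medians were 12.3 for Frizzled receptors, 11.5 for ligands, 9.91 for transducers and targets, 7.48 for co-receptors, 6.81 for inhibitors and 4.05 for R-spondins. Because the flanks are of fixed length, loci were also read against all genes of the same locus length class. Loci up to 50 kb, of which 15 were Wnt genes and 8 of these Frizzled genes, had a median of 11.5 against 6.43 for all genes. From 50 to 100 kb it was 9.02 for 22 Wnt loci against 7.25, and from 100 to 200 kb 6.45 for 10 against 5.24. The 3 loci over 200 kb were Ror1, Ror2 and Tcf7l1, with 6.43, 8.76 and 11.3 against 3.50, so the median of the Wnt loci was above that of all genes in each of the 4 length classes.

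Wnt9a had the densest locus at 27.0 shared peaks per 100 kb, with 12.0% and 9.14% of its bases listed. Wnt11 had 23.3, Fzd7 20.2, Wnt5a 19.1 and Fzd5 19.1. At the other end were Fzd3 at 1.82, Sfrp1 at 2.56, Rspo2 at 2.63 and Fzd6 at 2.77. Density and promoter value were separate readings, since Fzd3, with the sparsest locus, had a promoter (3.59 and 4.11) like that of Wnt9a, with overlapping intervals in both replicates. In Wnt1 the libraries differed most, with 13.5% of bases listed in replicate 1 and 4.93% in replicate 2.

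Neighbouring Wnt genes share part of these sites. Wnt3a and Wnt9a lie 16175 bp apart and shared 10 of the 15 and 18 sites in their loci. Wnt6 and Wnt10a (6193 bp apart) shared 6 of 8 and 9, Wnt1 and Wnt10b (11706 bp) shared 3 of 8 and 5, and Wnt3 and Wnt9b (24328 bp) shared 2 of 6 and 5. The closed promoters of Wnt3a and Wnt10a thus lay beside partners with an open promoter, and their counts were partly those of the partners.

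**Figure D3:**
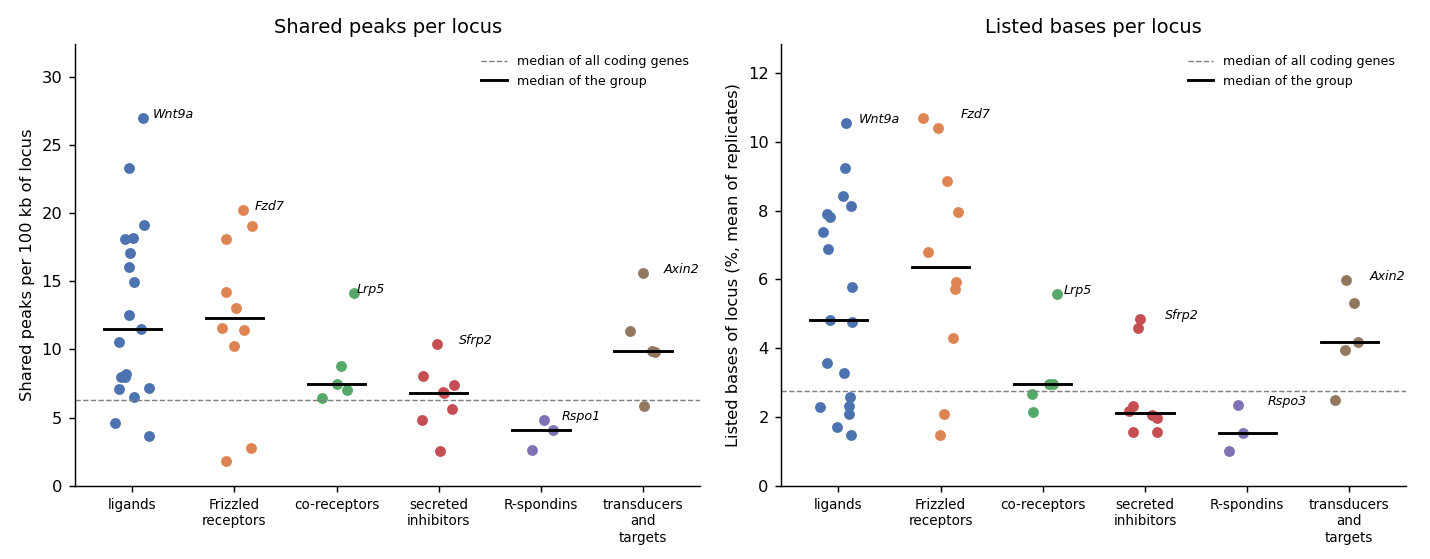
Left, shared peaks per 100 kb of locus and right, percentage of listed bases in the locus (mean of replicates), for each Wnt pathway gene by role. Black bars are group medians and dashed lines the all-gene medians (left 6.27, right the mean of 2.57 and 2.93 in the 2 replicates). The highest gene of each group is named, and the 3 R-spondins lie below the line in both panels.

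Many ligand loci held a distal site that was higher than the promoter. A shared distal site was found in 47 of 50 loci, beside 77.5% of all coding genes, and the 3 without one were Fzd3, Sfrp4 and Rspo1. The highest distal site lay above the gene's own promoter at 12 of 13 open ligands, 0 of 10 Frizzled receptors, 2 of 5 co-receptors, 3 of 7 inhibitors, 1 of 3 R-spondins and 2 of 5 transducers and targets, together 20 of 43 (all open genes: 27.1%). The exception among the ligands was Wnt4, and at Wnt7a the distal site (1.19 and 1.09) and the promoter (1.28 and 1.01) did not differ beyond counting error. Within 250 bp of the Wnt7a start, the highest peak had only 0.538 and 0.464. At Fzd8 the replicates disagreed. Its distal site was above the promoter in replicate 1 (5.43 against 4.11) and below it in replicate 2 (4.72 against 6.63). Fzd3, Sfrp4 and Rspo1, which had no distal site, were counted as not above. Low promoters are more easily exceeded, and among open promoters of 2 or less the count was 17 of 22 Wnt genes (all genes: 67.7%), with 11 of 11 ligands. The highest distal site of a locus had a median of 3.46 at ligands, 2.02 at Frizzled genes and 2.24 at all coding genes. This median was higher than the ligands' at co-receptors (3.85) and at transducers and targets (3.60). It was lower at inhibitors (1.80) and R-spondins (1.45). A highest value can rise with the number of sites in a locus, which was not allowed for. Median shared peaks per locus were 8 for ligands, 5.5 for Frizzled genes, 19 for co-receptors and 5 for all coding genes. Wnt3a and Wnt9a had the same highest site, as did Wnt3 and Wnt9b. The highest site of the Wnt10b locus (1.67 and 3.36) lay in an intron of Arf3. It was 661 bp from the Arf3 start and 14698 bp from a Wnt10b start.

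**Figure D4:**
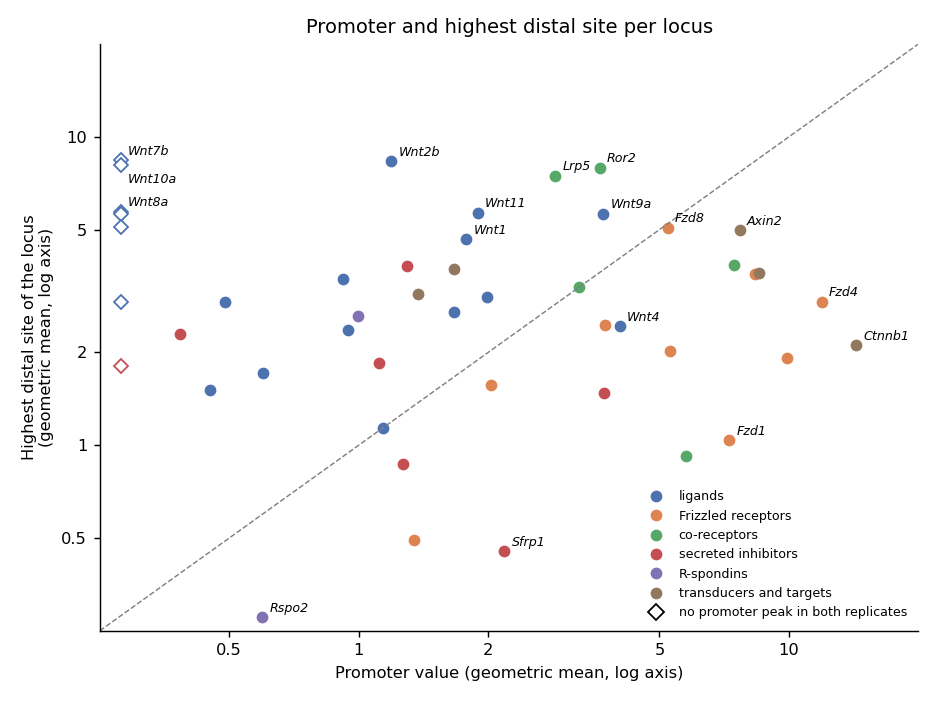
Highest shared distal site of each Wnt pathway locus against the gene's promoter value (both geometric means of the replicates, log axes), coloured by role, with the diagonal of equal values. Open diamonds at the left edge are genes with no promoter open in both replicates, at the height of their distal site. Ligands lie on or above the diagonal except Wnt4. The 9 Frizzled receptors with a distal site lie below it, with Fzd8 close to it.

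The highest distal sites of the list stood at genes with low or closed promoters. Wnt7b, with a promoter peak in replicate 1 alone, had a site of 6.06 (5.71 to 6.43) and 11.7 (11.1 to 12.2) at chr15:85600521-85600680, between genes and 18128 bp upstream of its nearest start. Wnt2b had 8.68 and 8.03 at chr3:104968081-104968240, 6240 bp upstream. Wnt10a, with no promoter peak, had 7.41 and 8.90 at chr1:74816921-74817100 and 7.04 and 6.43 at chr1:74808221-74808400, both downstream of the gene (23648 and 14948 bp from a start). Wnt7b, Wnt2b and Wnt10a were the coding genes with the nearest start to these 4 sites, which does not show which gene they act on. All 4 lay above the 90th percentile of shared distal sites (2.92). At Wnt7b the promoter call depended on the 500 bp limit. A shared peak of 3.64 and 3.67 lay 758 bp upstream of a start, and another of 3.82 and 2.61 lay 1238 bp upstream.

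Closed promoters of other ligands had the same company. Wnt8a had a site of 6.29 and 5.18, 3952 bp upstream, and Wnt8b a site of 5.51 and 4.71, 19121 bp upstream. The highest site of Wnt3a, 4.87 and 6.53, was in an intron of Wnt9a (chr11:59307901-59308080), 1061 bp inside that gene, and is the highest site of Wnt9a as well. Wnt11 had 5.22 and 6.17 at chr7:98815281-98815500, 19721 bp upstream, and 2 more sites above the 90th percentile in its introns. Wnt1 had 5.92 and 3.67 at chr15:98799521-98799680, where the nearest coding start was that of its neighbour Ddn.

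Outside the ligands the highest site was in Ror2, 8.29 and 7.61 at chr13:53109621-53109740 in an exon at the far end of the gene, 175868 bp from a start. Lrp5 had 5.88 and 9.50 in an intron (chr19:3681401-3681580), 5065 bp from its start. Among Frizzled genes it was Fzd8 at 5.43 and 4.72, in its exon. Among inhibitors it was Sfrp2 at 4.11 and 3.53 (chr3:83764341-83764520), 1890 bp upstream, and among R-spondins Rspo3 at 2.33 and 2.96 (chr10:29532901-29533060), in an intron. Over all distal sites of the Wnt loci, 11.8% were above the 90th percentile, beside 10.0% of all shared distal sites, so the share of high sites was close to the background.

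The distal sites upstream of Wnt7b and Wnt8b are shown as the highest site of the list and as one that holds the CTCF letters. Both are on the plus strand of mm10, and capitals mark bases in footprints found in both replicates.
Wnt7b distal site, chr15:85600521-85600680: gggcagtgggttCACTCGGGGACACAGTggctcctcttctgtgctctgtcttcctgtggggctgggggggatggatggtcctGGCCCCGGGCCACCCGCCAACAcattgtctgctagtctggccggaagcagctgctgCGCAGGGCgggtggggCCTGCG
Wnt8b distal site, chr19:44474261-44474440: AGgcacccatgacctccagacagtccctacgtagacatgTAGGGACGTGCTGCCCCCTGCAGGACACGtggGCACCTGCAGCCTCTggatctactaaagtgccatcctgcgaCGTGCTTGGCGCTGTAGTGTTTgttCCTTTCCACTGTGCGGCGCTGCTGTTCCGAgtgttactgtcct
CTCF, a factor that anchors chromatin loops, was searched on both strands as CC, any 3 bases and AGGGGGC, with no close variants counted. The Wnt8b site held it once, inside the footprint that covers 44474300 to 44474328. The letters were found in 7 of the 45 distinct highest distal sites of the Wnt loci (15.6%). The share over the highest sites of all loci is not given here. Of the distal sites above the 90th percentile, 5 of 35 in Wnt loci held them (14.3%), beside 12.6% of all such sites, so Wnt loci were close to the background here. Other letters were close to their backgrounds too: CAGCTG, the E-box read by muscle bHLH factors, was in 16.7% of shared Wnt peaks and 20.8% of all, TGANTCA (AP-1) in 4.88% and 5.49%, and CATTCC (TEAD) in 7.46% and 9.23%.

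The letters bound by TCF/LEF factors were searched as CTTTGAT, as CTTTGAA, as CTTTGTT and as CTTTGTA on both strands. They were in 30 of the 389 shared sites of the Wnt loci (7.71%), beside 6.96% of all shared peaks. These 30 sites held 32 cores. A core counted as footprinted when at least 4 of its 7 bases lay in a footprint found in both replicates, and this held for 8 of the 32 (25%), beside 8.13% of all 7061 cores. By sites it was 8 of 389 (2.06%), beside 0.588% of all shared peaks. With the whole core inside the footprint there were 3 of 32 (9.38%), beside 3.57% of all cores. The 8 lay in few loci: 3 at Axin2, 2 at Tcf7 and 1 each at Fzd7, Ror1 and Wnt11. Of the 8, 5 read CTTTGAT. The counts are small, and a match to these letters does not show which factor made the footprint.

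Axin2 held the largest group. The gene starts at chr11:108920349 on the plus strand, and the bases after the start held a row of peaks falling in value from 6.36 and 9.29 at the first start, through 3.25 and 4.44 and then 2.06 and 2.05, to 1.13 and 1.03. The cores lay at 108920427 to 108920433 (CTTTGAT, in the first exon), 108920790 to 108920796 (CTTTGAA) and 108921232 to 108921238 (CTTTGAT, in the first intron). Another core, CTTTGAA at 108921252 to 108921258, had no shared footprint. The footprints covered the cores in part, running from 108920420 to 108920432, from 108920776 to 108920793 and from 108921229 to 108921236. The stretches around them are shown because Axin2 is the standard readout gene of the pathway, on the plus strand of mm10, with capitals for the footprinted core; exon sequence is kept to a short window.
Axin2 core 1, chr11:108920415-108920444: gagccggctgcgCTTTGATaaggtcctggc
Axin2 core 2, chr11:108920701-108920799: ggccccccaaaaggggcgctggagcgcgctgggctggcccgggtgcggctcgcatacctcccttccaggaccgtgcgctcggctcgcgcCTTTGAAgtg
Axin2 core 3, chr11:108921194-108921335: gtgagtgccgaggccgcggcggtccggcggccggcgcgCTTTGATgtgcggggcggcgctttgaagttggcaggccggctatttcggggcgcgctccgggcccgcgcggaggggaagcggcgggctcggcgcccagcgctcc
Axin2 also had an intronic distal site of 6.09 in replicate 1 (5.74 to 6.46) and 4.06 in replicate 2 (3.76 to 4.38), almost as high as its promoter in replicate 1 and lower in replicate 2. It held no TCF/LEF core. It is shown with bases in shared footprints in capitals.
Axin2 distal site, chr11:108925321-108925500: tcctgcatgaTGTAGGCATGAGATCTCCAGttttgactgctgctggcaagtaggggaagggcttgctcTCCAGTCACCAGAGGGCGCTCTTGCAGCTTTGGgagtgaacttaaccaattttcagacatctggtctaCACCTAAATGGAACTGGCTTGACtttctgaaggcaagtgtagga

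**Figure D5:**
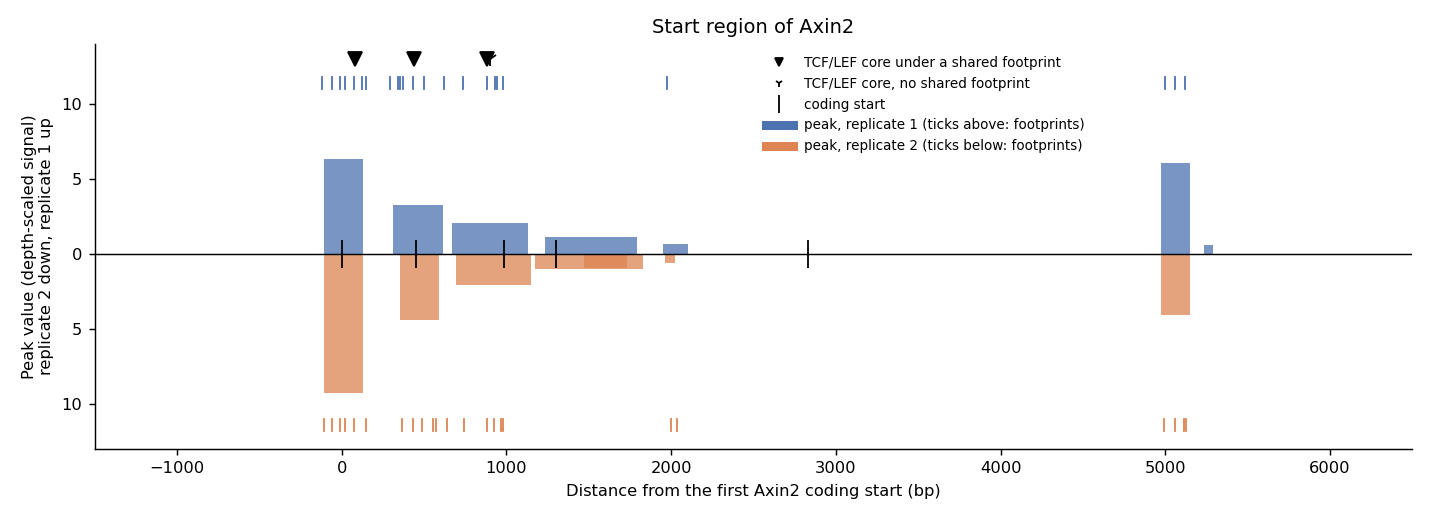
Start region of Axin2 drawn to scale, with distance from the first coding start in bp on the x axis and peak value on the y axis, replicate 1 upward in blue and replicate 2 downward in orange. Ticks at the top and bottom are footprints of each replicate, vertical lines on the axis are coding starts, and triangles mark the 3 TCF/LEF cores under shared footprints. Both replicates show the same row of falling peaks and a separate intronic peak to its right.

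Tcf7 encodes a TCF factor and is itself a known Wnt target. It is on the minus strand, and a CTTTGAT core lay at chr11:52283368-52283374 in its promoter peak (2.02 and 1.37). Another lay at chr11:52284459-52284465 in a site of 2.08 and 2.38, 1417 bp upstream, wholly inside a footprint of 21 bp. Both peaks are shown on the plus strand of mm10, with the core in capitals, where it reads as the reverse complement.
Tcf7 promoter, chr11:52283281-52283500: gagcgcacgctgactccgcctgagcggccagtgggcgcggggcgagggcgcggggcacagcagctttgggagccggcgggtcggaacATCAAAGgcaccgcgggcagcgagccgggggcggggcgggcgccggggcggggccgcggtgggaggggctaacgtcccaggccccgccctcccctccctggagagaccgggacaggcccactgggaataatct
Tcf7 upstream site, chr11:52284341-52284520: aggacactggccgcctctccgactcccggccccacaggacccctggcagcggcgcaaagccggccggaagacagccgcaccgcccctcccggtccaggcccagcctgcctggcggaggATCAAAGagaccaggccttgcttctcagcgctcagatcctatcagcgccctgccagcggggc
The upstream site was higher than the promoter peak in both replicates, with intervals that did not overlap in replicate 2.

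The last 2 cores were wholly inside shared footprints far from a start. In an intron of Ror1, 311940 bp from its start, a site of 4.21 and 3.52 held CTTTGTT at 100407801 to 100407807 under a footprint of 24 bp, and this was the highest distal site of the gene. Downstream of Wnt11, 25326 bp from a start, a lower site of 0.740 and 1.46 held CTTTGAT at 98864141 to 98864147 under a footprint of 13 bp. They are shown on the plus strand of mm10 with the core in capitals, which is the reverse complement in Wnt11.
Ror1 intron, chr4:100407641-100407820: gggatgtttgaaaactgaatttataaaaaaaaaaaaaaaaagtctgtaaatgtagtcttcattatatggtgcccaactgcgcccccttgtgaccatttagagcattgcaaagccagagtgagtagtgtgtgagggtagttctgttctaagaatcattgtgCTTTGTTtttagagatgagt
Wnt11 downstream site, chr7:98864101-98864240: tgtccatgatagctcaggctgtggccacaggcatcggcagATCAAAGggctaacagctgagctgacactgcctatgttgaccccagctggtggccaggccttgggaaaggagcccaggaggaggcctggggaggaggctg
The Wnt11 site held CAGCTG as well, 2 times counting both strands, and Wnt11 had 6 sites with a TCF/LEF core in its locus, the most of any gene on the list, of which this was the footprinted one.

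Other genes of the pathway came from a list of 57, all matched to the annotation (1 through an older symbol), and 52 of them were open in both replicates (all genes: 66.0%). Their median value was 5.53, like that of all open promoters (5.49) and above that of the ligands and inhibitors. The destruction complex and Dishevelled genes were open at 10 of 10 with a median of 11.6, among them Btrc (16.8 and 24.1), a part of the ligase that marks beta-catenin for breakdown, and the scaffold Apc (12.8 and 16.8). Nuclear partners of beta-catenin were open at 8 of 8, such as the co-repressor Tle1 (12.3 and 25.9). Planar polarity and calcium genes were open at 9 of 9, and feedback and target genes at 8 of 8, from Bambi (12.4 and 20.2) to Fst (1.25 and 1.14). Medians were 9.31 for the nuclear partners, 4.02 for the planar polarity and calcium genes and 3.09 for the feedback and target genes, so the last 2 groups lay below the median of all open promoters.

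The secreted and surface genes beyond the list were less even. All 3 genes of Wnt secretion were open, with Wls, the carrier of Wnt proteins to the cell surface, at 1.57 and 2.49. Agonists and their receptors were open at 7 of 8, with the R-spondin receptor Lgr4 at 6.45 and 12.2, Lgr5 at 1.46 and 1.29, and the ligand gene Rspo4 at 0.587 and 0.446. Inhibitors and turnover genes were open at 7 of 11. The ligase Znrf3, which removes Frizzled receptors, had 11.4 and 10.4, whereas the bone inhibitor Sost and the inhibitor Dkk4 had no peak, as did Ndp, which encodes Norrin. Sostdc1 had a peak in replicate 2 alone and Kremen2 in replicate 1 alone. Low values were not limited to secreted factors, since the receptor Lgr6 had 0.810 and 0.822. Nor were all secreted factors that low, since the secreted inhibitor Igfbp4 had 3.37 and 5.38.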

How the data were processed

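DNase-seq was made from gastrocnemius in 1 group of 2 libraries. The authors deposited, per library, peaks with a depth-scaled signal, footprints (0.01 on every line, so only positions were used) and positions with a p-value type of number, a false discovery rate under 0.05. Per the deposited sample notes, each set came from that library's own filtered alignments to mm10. The aligner and callers are not stated there. Reads of CAST alleles may map less well to this reference, which was not tested.

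From these files promoter values, loci and overlaps (at least 1 bp) were computed with Python 3.11.15, numpy 2.4.6, pandas 2.3.3 and scipy 1.17.1, after checks on simulated data. Sequences were read from the matching mm10 assembly, and UTRs, transcripts and genes from GENCODE M21. The genes, lists and motifs were chosen with earlier results of these data known. Every gene of the list is accounted for. The result of 1 marker list is not reported here. Distal sites were named mostly by rank within each role. Sequences were chosen by a TCF/LEF core under a shared footprint, by rank or, at Wnt8b, by the CTCF letters. Alternatives were stricter peaks, other windows, flanks, overlaps and rates, a narrower core and leaving out each replicate.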

Additional observations from a re-analysis of the deposited data

How the results depend on the processing

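Leaving out replicate 1 or replicate 2 gave 45 and 44 open Wnt promoters in place of 43, and 553 and 490 peaks in the loci in place of 389. Promoters of 2 or less numbered 25 and 21 in place of 22. Of the 32 TCF/LEF cores, 9 and 9 counted as footprinted by the footprints of the remaining replicate, in place of 8. The sites with these cores were still those shared by both replicates, so this count could not vary freely. The count of open promoters was 39 with the stricter peak set (Wnt6, Wnt9b, Wnt10b and Dkk1 dropped out), 42 with 250 bp, 44 with 1000 bp (Wnt7b was gained) and 37 with peaks above the library median. The median promoter value rose from 1.98 to 2.18 with the stricter set, which leaves out low promoters. Median listed bases over the loci, the mean of both replicates, went from 4.07% to 2.92% at a rate under 0.01, 2.23% under 0.001 and 5.63% over gene bodies alone. Shared footprints went from 694 to 365 over gene bodies alone, which cover fewer bases. Sites with a TCF/LEF core went from 30 to 9 with CTTTGAT alone, which is 2.31% of the shared sites, beside 1.28% of all shared peaks. Footprinted cores went from 8 to 3 with the whole core inside, an alternative chosen after seeing the data. The alternatives without a replicate for cores and for low promoters were also chosen after seeing the data. The highest distal site was the same at 42 of 47 loci by replicate 1 and 40 by replicate 2. Only sites shared by both replicates were ranked, so a peak of a single replicate could not come first. No paired analysis was possible because there was 1 group. With 2 libraries no spread within the group could be tested, and peaks with few tags, as at Dkk1 (78 and 59), are the least precise values.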
